A study of Homo sapiens with 10 samples.

Results

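The genes encoding subunits of the 5 oxidative phosphorylation complexes were followed across human genome arrays of PC-3 cells, which are an established line of human prostate cancer, treated with luteolin, gefitinib or both. A gene was taken when its name on the array began with NDUFA, NDUFB, NDUFC, NDUFS or NDUFV, with SDHA, SDHB, SDHC or SDHD, with UQCR, with COX4 to COX8, or with ATP5. These prefixes matched 88 names. The assembly factor NDUFAF1 and the pseudogenes SDHALP1, SDHALP2 and SDHAP3 were set aside, which left 84 genes of the 27749 named on the array. They comprised 40 genes of complex I, 4 of complex II, 7 of complex III, 17 of complex IV and 16 of complex V. Genes were assigned to a complex by name alone, so that NDUFA4 counts under complex I and not IV. The name rule also took COX4NB, ATP5S, COX7A2L, NDUFA4L2 and NDUFA12L, which are not structural subunits, so that 79 of the 84 were. Unless stated otherwise, these stay in the counts and medians below where they passed the filter.

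Complex I, NADH dehydrogenase, and complex II, succinate dehydrogenase, pass electrons from NADH and succinate to ubiquinone in the inner mitochondrial membrane. Complex III, the cytochrome bc1 complex, hands them to cytochrome c, and complex IV, cytochrome c oxidase, to oxygen. Complexes I, III and IV pump protons, and complex V, the ATP synthase, uses the resulting gradient to make ATP. Most subunits are encoded in the nucleus, whereas a few core subunits of complexes I, III, IV and V are encoded in mitochondrial DNA. Many nuclear subunit genes are known targets of the factors NRF1, GABPA, YY1 and the estrogen-related receptors.

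Total RNA was labelled with Cy3 and hybridized to 10 one-color arrays, with 2 labelled biological replicates in each of the 5 groups. The samples were PC-3 cells without treatment at 0 h, cells given the solvent DMSO for 24 h, cells given 60 µM luteolin, a plant flavonoid, for 24 h, cells given 60 µM gefitinib, an inhibitor of the EGF receptor kinase, for 24 h, and cells given both compounds at 60 µM each for 24 h. All came from a single cell line, so the spread between arrays is that of 1 line in culture. Each compound was used at 1 dose and 1 time.

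The sample labels and the names of the scanner files disagreed for the 6 drug-treated arrays. In the file names, gefitinib stood for the arrays labelled luteolin, both compounds for those labelled gefitinib, and luteolin for those labelled with both compounds. Which naming is right was not settled here, so groups are named below by their labels, and a value given for luteolin is that of the arrays labelled luteolin. With the file names instead, the luteolin values below would belong to gefitinib, the gefitinib values to both compounds and the values of both compounds to luteolin. The comparison of DMSO with 0 h does not depend on this.

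The 5 epithelial markers KRT8, KRT18, KRT19, EPCAM and CDH1 were well above background on all 10 arrays, whereas PTPRC, DCN and VWF, markers of leukocytes, fibroblasts and endothelium, were not well above background on any. Other markers of these cell types were, since CD14, CD3E and PECAM1 exceeded background on all 10 arrays, COL1A1 on 9, LUM on 8, COL1A2 on 2 and CDH5 on 1. With gefitinib, where most subunit genes rose relative to the 75th percentile, CD14 (1.81) and CD3E (1.25) were raised against DMSO on the same log2 scale, as were 3 of the 5 epithelial markers (median of the 5 0.82), while COL1A1 fell by 2.22 and LUM rose by 1.03. With both compounds CD14 (1.64) and LUM (1.74) rose, COL1A1 fell by 1.54, and 1 epithelial marker rose and 2 fell. With luteolin CDH1 (1.29) alone among the tested markers of these cell types passed the test. The part of other cell types in the results was not tested.

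The upstream sequence of 4 subunit genes is shown because each had the largest fall against DMSO among the genes of its complex that passed the test on the luteolin arrays (no gene of complex IV passed it). Each run holds the 250 bases before the start of the RefSeq gene, 5′ to 3′ on the strand of the gene, in the build GRCh38.p14. Capitals mark the core of the NRF1 motif, GCGCANGCG, or its reverse complement CGCNTGCGC. The stretches are chr12:4648864-4649113 on the plus strand for NDUFA9, a complex I subunit, chr5:218070-218319 on the plus strand for SDHA, the flavoprotein of complex II, chr19:29213152-29213401 on the minus strand for UQCRFS1, the Rieske iron-sulfur protein of complex III, and chr17:48892537-48892786 on the plus strand for ATP5G1, also named ATP5MC1, a gene for the c-ring subunit of complex V.
NDUFA9: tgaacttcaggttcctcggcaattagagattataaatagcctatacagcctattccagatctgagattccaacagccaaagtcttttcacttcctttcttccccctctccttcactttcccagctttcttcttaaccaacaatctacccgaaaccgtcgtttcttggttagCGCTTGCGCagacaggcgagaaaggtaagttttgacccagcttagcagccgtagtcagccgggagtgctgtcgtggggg
SDHA: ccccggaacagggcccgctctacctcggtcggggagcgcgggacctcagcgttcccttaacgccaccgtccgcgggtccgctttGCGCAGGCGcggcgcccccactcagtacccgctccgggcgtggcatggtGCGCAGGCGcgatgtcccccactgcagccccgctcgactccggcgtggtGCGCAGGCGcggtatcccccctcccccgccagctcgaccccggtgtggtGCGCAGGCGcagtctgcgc
UQCRFS1: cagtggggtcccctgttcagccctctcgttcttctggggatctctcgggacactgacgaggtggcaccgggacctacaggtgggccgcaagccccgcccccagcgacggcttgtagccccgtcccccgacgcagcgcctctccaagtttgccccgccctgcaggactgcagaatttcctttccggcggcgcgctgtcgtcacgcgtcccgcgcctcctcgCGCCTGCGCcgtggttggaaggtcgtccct
ATP5G1: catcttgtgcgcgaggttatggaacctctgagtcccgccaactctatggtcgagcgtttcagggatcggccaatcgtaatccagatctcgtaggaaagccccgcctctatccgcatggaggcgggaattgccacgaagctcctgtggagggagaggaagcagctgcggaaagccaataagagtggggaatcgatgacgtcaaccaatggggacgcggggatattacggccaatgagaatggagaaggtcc

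The SDHA stretch held 4 copies of the NRF1 core, NDUFA9 and UQCRFS1 held 1 each, and ATP5G1 held none. Promoter windows of 300 bases, from 250 before to 50 after the start, were given for 69 of the 84 genes. The NRF1 core occurred on either strand in 20 of the 69 windows (29.0%) and in 2197 of all 27305 (8.05%). The GABPA core CCGGAAG also occurred in 20 (29.0%, against 10.67% of all), the YY1 core ATGGCGG in 18 (26.1%, against 5.72%) and the estrogen-related receptor half-site AAGGTCA in 8 (11.6%, against 3.97%). Of the 12 genes lowered on the luteolin arrays, 9 had a window. The NRF1 core was in 5 of these 9, the YY1 core in 3, the GABPA core in 2 and the AAGGTCA half-site in 1. These matches describe letters in a window and show no binding.

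Each level is given as log2 of the processed signal over the 75th percentile of the signals of its array, from the brightest probe of the gene. The brightest-probe level of 81 of the 84 genes passed the filter on dim probes, which required both arrays of at least 1 group to be well above background. The other 3 were paralogs of restricted expression. COX4I2 exceeded background on 0 arrays, NDUFA4L2 on 1 and COX7A1 on 2, so none had a level that could be compared. The 75th percentile itself differed between groups. It was 1402 and 1177 at 0 h, 1350 and 1283 in DMSO, 1173 and 1041 with luteolin, 651 and 628 with gefitinib, and 865 and 540 with both compounds. The lower percentile on the gefitinib and combined arrays enters every value scaled to it. The methods give a fixed mass of labelled cRNA for hybridization, so these signals do not measure RNA per cell. What lowered the percentile was not tested.

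The median level of the 81 genes was 4.19 and 4.33 at 0 h, 4.46 and 4.50 in DMSO, 4.14 and 4.17 with luteolin, 5.24 and 5.18 with gefitinib, and 4.74 and 5.13 with both compounds. The gefitinib arrays lay above all others, the luteolin arrays lay below both DMSO arrays, and the 2 arrays with both compounds lay far apart. The typical SD of a subunit gene between the 2 arrays of a group was 0.10 at 0 h, 0.06 in DMSO, 0.07 with luteolin, 0.11 with gefitinib and 0.33 with both compounds (medians over the 81 genes, n = 2).

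**Figure D1:**
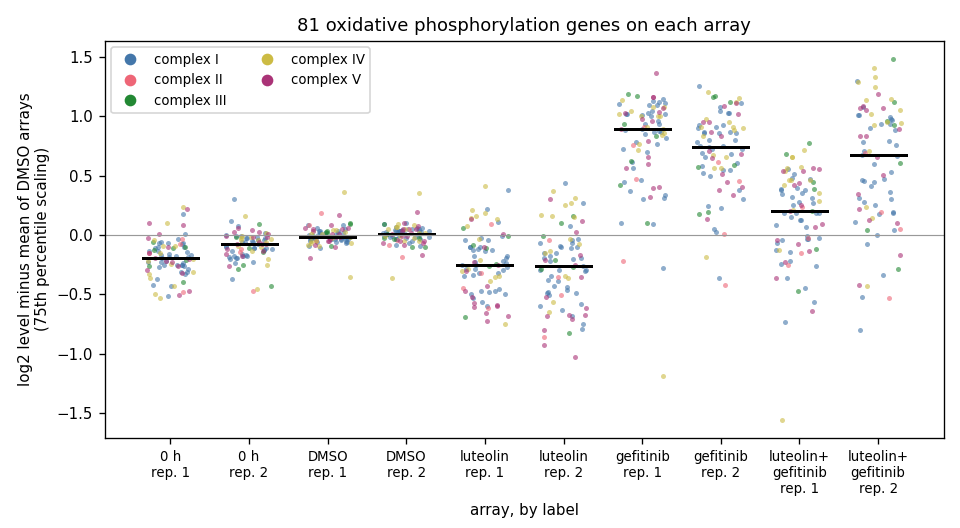
Level of each of the 81 subunit genes on each of the 10 arrays, as log2 over the 75th percentile, minus the mean of the same gene over the DMSO arrays. Points are genes colored by complex and bars are medians of the 81. Most genes on the gefitinib arrays lie above 0, most on the luteolin arrays lie below, and the 2 arrays with both compounds differ.

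The subunit genes were among the brightest on the arrays, and 63 of the 81 fell in the brightest 10% of the 19475 genes tested. Against DMSO, these brightest genes as a whole had a median log2 change of 0.75 with gefitinib, 0.45 with both compounds and 0.02 with luteolin. After quantile normalization, which gives all arrays the same distribution of values, their medians were 0.04, 0.01 and 0.02. The changes of the subunit genes on the gefitinib and combined arrays were therefore given on both scales.

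**Figure D2:**
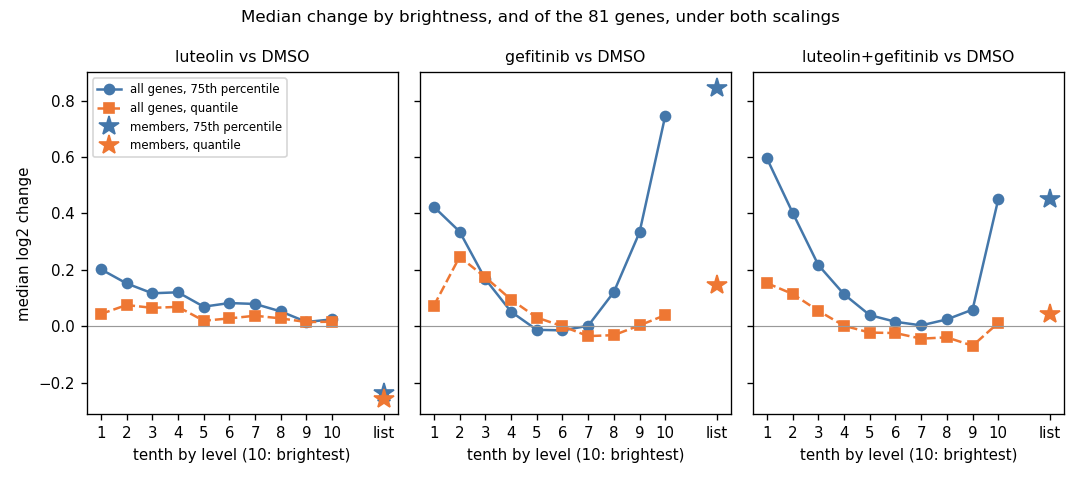
Median log2 change against DMSO in 10 equal bins of the 19475 genes ordered by mean level (dimmest to brightest), with the median of the subunit genes as stars at the right. Circles with solid lines give scaling to the 75th percentile and squares with dashed lines give quantile normalization. On the first scale the brightest bin lies at 0.75 with gefitinib and 0.45 with both compounds, and on the second near 0.

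The comparison of DMSO with 0 h showed what the solvent and a day in culture did without either compound. No subunit gene passed the test in either direction, where 0.0257% of all genes were raised and 0.0103% lowered (limma, Benjamini-Hochberg adjusted p under 0.05). None had an unadjusted p under 0.05 in limma, where 1198 of all 19475 genes tested did. The per-gene test of the study's methods, unadjusted, called 10 higher and 1 lower, and none after adjustment. Its share over all genes was not computed, so these counts cannot be set against a background. The median log2 change of the 81 genes was 0.13, and 74 of the 81 were positive, against a median of -0.02 over all genes tested.

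On the luteolin arrays, 12 subunit genes were lowered against DMSO and none was raised. Of these, 7 belonged to complex V, 2 each to complexes I and II and 1 to complex III. On the brightest probes the falls were moderate and none reached 2-fold. Dimmer probes of ATP5F1 (-1.45, limma adjusted p = 0.0381) and ATP5L (-1.09, limma adjusted p = 0.014) fell by more. The brightest probe of ATP5L had a change of -0.28 and did not pass the test. The median log2 change of the 81 genes was -0.24, with 66 of the 81 negative, beside a median of 0.09 over all genes. Over all genes 11.7% were lowered and 14.3% raised, so the 14.8% of subunit genes lowered was close to the background, while 0 of 81 raised was below it. With a fall or rise of at least 2-fold, 6.12% of all genes were lowered and 7.23% raised, and the count was 0 for the subunit genes in both directions. At an unadjusted p under 0.05 in limma, 22 of the 81 subunit genes differed between luteolin and DMSO, beside 7481 of all 19475 genes tested.

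The c-ring subunits of the ATP synthase are the rotating membrane part through which protons pass. The level of ATP5G1 was 3.94 and 3.84 in DMSO and 3.21 and 2.86 with luteolin, a log2 change of -0.85 ± 0.24 (SE, limma adjusted p = 0.0318). ATP5G3, which encodes the same mature protein, had levels of 6.25 and 6.13 in DMSO and 5.53 and 5.51 with luteolin (-0.67 ± 0.20, adjusted p = 0.0397). The luteolin arrays lay below the DMSO arrays for both genes, which was a condition for choosing ATP5G1. ATP5G2, the remaining c-ring gene, had levels of 5.51 and 5.62 in DMSO and 5.31 and 5.35 with luteolin, and its change of -0.23 ± 0.22 did not pass the test (adjusted p = 0.474).

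The catalytic head of complex V is built from the alpha and beta subunits around the gamma stalk. ATP5A1, the alpha subunit, had levels of 4.62 and 4.60 in DMSO and 3.89 and 3.93 with luteolin and fell by 0.70 on the log2 scale (adjusted p = 0.03). ATP5C1, the gamma subunit, had levels of 1.95 and 1.83 in DMSO and 1.32 and 1.09 with luteolin and fell by 0.69 (adjusted p = 0.019). The beta subunit gene ATP5B had levels of 4.97 and 4.63 in DMSO and 4.37 and 4.18 with luteolin, without overlap, but its change of -0.52 ± 0.23 did not pass the test (adjusted p = 0.137).

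Of the peripheral stalk, ATP5F1, the b subunit, had levels of 4.15 and 3.98 in DMSO and 3.46 and 3.14 with luteolin (-0.76 ± 0.19, adjusted p = 0.0194). The remaining lowered genes of complex V were ATP5J2, the f subunit of the membrane part, with levels of 4.66 and 4.68 in DMSO and 4.09 and 3.96 with luteolin (adjusted p = 0.0427), and ATP5S, which is not a structural subunit, with 0.24 and 0.45 in DMSO and -0.26 and -0.33 with luteolin (adjusted p = 0.0208). The small subunits ATP5E and ATP5I had changes of 0.06 and 0.22, on the opposite side of 0 from the core subunits, and neither passed the test.

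In complex II, SDHA had levels of 3.28 and 2.90 in DMSO and 2.48 and 2.23 with luteolin, a log2 change of -0.73 ± 0.20 (adjusted p = 0.0277). SDHD, a membrane anchor of the complex, had levels of 2.60 and 2.52 in DMSO and 2.12 and 2.05 with luteolin (-0.48 ± 0.14, adjusted p = 0.0387). Both were lower on each luteolin array than on each DMSO array, which was a condition for choosing them. SDHB, the iron-sulfur subunit, had a change of -0.34 ± 0.18 and SDHC, the other anchor, one of 0.02 ± 0.26, and neither passed the test. SDHA has near-identical pseudogene copies in the genome, and what the probe reads from them was not tested.

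In complex III, UQCRFS1 had levels of 4.55 and 4.50 in DMSO and 3.84 and 3.70 with luteolin, a log2 change of -0.76 ± 0.15 (adjusted p = 0.00923). The core proteins UQCRC1 and UQCRC2 had changes of -0.27 and -0.19 and did not pass the test. In complex I, NDUFA9, an accessory subunit of the peripheral arm, had levels of 1.95 and 1.88 in DMSO and 1.34 and 1.28 with luteolin (-0.60 ± 0.16, adjusted p = 0.028). NDUFS3, a core subunit of the same arm, had levels of 3.42 and 3.54 in DMSO and 3.01 and 3.00 with luteolin (-0.48 ± 0.14, adjusted p = 0.0433). For these 3 genes too the luteolin and DMSO arrays did not overlap, which was a condition for choosing them.

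No gene of complex IV passed the test on the luteolin arrays, where the median log2 change of its 15 genes was -0.14. The change was 0.19 ± 0.20 for COX4I1 and 0.21 ± 0.21 for COX5B, but -0.37 ± 0.18 for COX5A. A dimmer probe of COX4I1 had a change of -0.60 (limma adjusted p = 0.0399). The medians of complexes I, II, III and V were -0.24, -0.41, -0.19 and -0.51. Whether the complexes differed from each other was not tested, since genes of a complex are not replicates. NDUFS4, an accessory subunit of complex I, had levels of 2.76 and 2.73 in DMSO and 3.12 and 3.18 with luteolin. Its change of 0.41 ± 0.14 did not pass the test (adjusted p = 0.0719) but did after quantile normalization (0.44, adjusted p = 0.037).

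After quantile normalization, 20 subunit genes were lowered with luteolin and 1 raised (13.3% and 13.8% of all genes), with a median log2 change of -0.26, and the 20 included all 12 above. With no scaling between arrays 9 were lowered, 7 of them among the 12, and none was raised (8.4% and 3.57% of all genes). The count depended on single arrays. It was 0 without either DMSO array or without the second luteolin array, and 4 without the first luteolin array, although the median change stayed between -0.27 and -0.24. Within slides, the median change of the 81 genes was -0.23 on slide 1 and -0.26 on slide 2, each with 1 array of each group, and 8 of the 12 genes passed the test with the slide as a block.

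**Figure D3:**
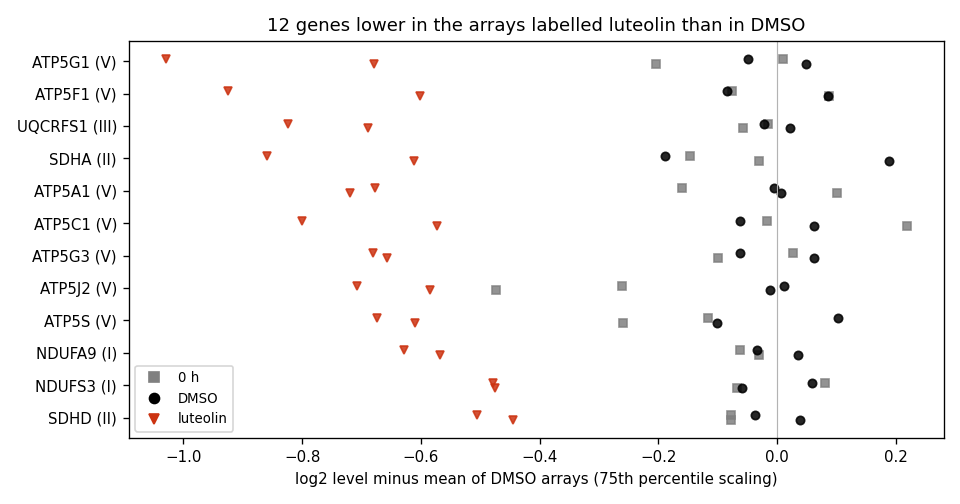
Levels of the 12 subunit genes lowered on the luteolin arrays, on the 0 h, DMSO and luteolin arrays, as log2 over the 75th percentile minus the mean of the DMSO arrays, with 1 point for each array and the complex in brackets. Both luteolin points lie left of both DMSO points in all 12 genes, as with SDHA, whose levels were 2.48 and 2.23 against 3.28 and 2.90.

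On the gefitinib arrays, 65 subunit genes were raised against DMSO and none was lowered on the scale of the 75th percentile, whereas after quantile normalization 4 were raised and 5 lowered, and without scaling none was raised and 12 were lowered. Without scaling 1.92% of all genes were raised and 48.3% lowered. The median log2 change was 0.84 on the first scale, 0.15 on the second and -0.20 without scaling. Over all genes 33.1% were raised and 22.1% lowered (23.4% and 24.3% after quantile normalization), and the median of all genes was 0.22, 0.05 and -0.82 on the 3 scales. Hence the sign of the group's median differed between the scales, while this median lay above that of all genes on all 3. The share of subunit genes called after quantile normalization was below the background in both directions. Of the 65 genes, 16 rose by at least 2-fold, where 15.7% of all genes did so and 14.2% fell by as much. The count of 65 became 38 and 42 without the first or the second DMSO array. Within slide 1, the only slide with both groups, the median log2 change was 0.91, and 59 of the 65 genes passed the test with the slide as a block.

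The rise relative to the 75th percentile ran through every complex. It passed the test in 33 of 39 genes of complex I, 2 of 4 of complex II, 5 of 7 of complex III, 13 of 15 of complex IV and 12 of 16 of complex V, with median log2 changes of 0.84, 0.42, 0.75, 0.94 and 0.85. In complex III, the small subunits led. UQCRQ had levels of 6.32 and 6.34 in DMSO and 7.5 and 7.45 with gefitinib (1.14 ± 0.18, adjusted p = 0.00176), and UQCR, now named UQCR11, had 5.68 and 5.64 in DMSO and 6.85 and 6.83 with gefitinib (1.18 ± 0.23, adjusted p = 0.00382). Both compared groups were tight and well apart, although a lack of overlap was a condition for choosing these genes.

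In complex IV, COX4I1, the ubiquitous form of subunit 4, had levels of 5.26 and 5.20 in DMSO and 6.31 and 6.39 with gefitinib (1.12 ± 0.20, adjusted p = 0.00306). Another COX4I1 probe had a change of 1.03, but a further one had 0.11 and did not pass the test (limma adjusted p = 0.615). COX6C had 5.56 and 5.60 in DMSO and 6.72 and 6.70 with gefitinib (1.13 ± 0.23, adjusted p = 0.00467). In complex V, ATP5D, the delta subunit of the central stalk, had 2.29 and 2.18 in DMSO and 3.60 and 3.19 with gefitinib (1.16 ± 0.19, adjusted p = 0.00206), and ATP5I, the e subunit, had a change of 1.14. In complex I the largest changes were 1.10 for NDUFA12L, which is not a structural subunit, and 1.08 for NDUFA3. In complex II, SDHB had 3.27 and 3.1 in DMSO and 4.09 and 3.80 with gefitinib (0.76 ± 0.18, adjusted p = 0.00858) and SDHD had a change of 0.46.

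Of the raised genes, 4 were also raised after quantile normalization, and these were COX5A (0.45, adjusted p = 0.047), NDUFA10 (0.65, adjusted p = 0.046), NDUFA12L (0.66, adjusted p = 0.024) and ATP5D (0.74, adjusted p = 0.006). COX5A had levels of 2.89 and 2.80 in DMSO and 3.85 and 3.75 with gefitinib, and NDUFA10 had 1.12 and 1.02 against 2.03 and 1.82. The 5 genes lowered on that scale were SDHA (-0.72, adjusted p = 0.028), NDUFV2 (-0.67, adjusted p = 0.042), NDUFV3 (-0.67, adjusted p = 0.014), ATP5G2 (-0.56, adjusted p = 0.018) and UQCRFS1 (-0.50, adjusted p = 0.02). None of these 5 was raised relative to the 75th percentile. NDUFV2 and NDUFV3 encode subunits of the NADH-binding module of complex I, and NDUFV1, which binds NADH itself, had changes of 0.84 relative to the 75th percentile and 0.17 after quantile normalization.

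A further scaling, on the median of the subunit genes of each array, set each gene against the rest of the group. With gefitinib, NDUFV3 (-1.05, adjusted p = 0.0043), SDHA (-1.05, adjusted p = 0.012), NDUFV2 (-0.67, adjusted p = 0.05), UQCRFS1 (-0.59, adjusted p = 0.019) and COX7B2 (-1.41, adjusted p = 0.02) were lowered relative to the others, and UQCRQ was raised (0.41, adjusted p = 0.048). On this scale 5.06% of all genes were raised and 41.6% lowered. SDHA had levels of 2.87 and 2.67 on the gefitinib arrays against 3.28 and 2.90 in DMSO, and NDUFV3 had 2.60 and 2.51 against 2.88 and 2.88. Both therefore lay below both DMSO arrays on arrays where most subunit genes lay above it.

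With luteolin, the same scaling raised 7 genes and lowered none (26.4% and 5.22% of all genes). The 7 were NDUFS4, COX7A2L, NDUFA7, ATP5I, COX6A1, COX5B and COX4I1, of which the last 3 are subunits of cytochrome c oxidase. With both compounds it raised 4 and lowered 11 (8.81% and 28.4% of all genes). These calls rest on a reference taken from the same 81 genes, and they describe order within the group.

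On the arrays with both compounds, 30 subunit genes were raised and 3 lowered against DMSO relative to the 75th percentile (25.1% and 16.2% of all genes), with a median log2 change of 0.45. After quantile normalization 4 were raised and 8 lowered (17.8% and 20.7% of all genes) with a median of 0.04, and without scaling none was raised and 30 were lowered (3.3% and 46% of all genes) with a median of -0.50. A rise of at least 2-fold was found in 2 genes, UQCR and COX6A2, and a fall of that size in none (12% and 7.65% of all genes). The medians of all genes on the 3 scales were 0.16, 0.00 and -0.78. Of the 30 genes raised, 4 were also raised after quantile normalization, and the 3 lowered genes were lowered on all 3 scales. The test shares its spread with the tighter groups. With only the DMSO and combined arrays in the fit, 5 subunit genes were raised, and the share of all genes was not computed for that fit.

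The genes lowered with both compounds included NDUFS3 and ATP5S. NDUFS3 had 3.42 and 3.54 in DMSO and 2.92 and 2.96 with both compounds (-0.54 ± 0.14, adjusted p = 0.0198). ATP5S had 0.24 and 0.45 in DMSO and -0.29 and -0.07 with both compounds (-0.53 ± 0.16, adjusted p = 0.0303). The 2 arrays with both compounds lay close together for NDUFS3, unlike for most of the raised genes.

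UQCR had levels of 5.68 and 5.64 in DMSO and 6.44 and 7.15 with both compounds (1.13 ± 0.23, adjusted p = 0.00718). The dimmer probe of UQCR had a change of 0.39 and did not pass the test (limma adjusted p = 0.22). COX6A2, a form of subunit 6A known from heart and skeletal muscle, had 4.08 and 4.26 in DMSO and 4.83 and 5.58 with both compounds (1.03 ± 0.25, adjusted p = 0.0137). COX7A2 had 5.24 and 5.37 in DMSO and 5.96 and 6.63 with both compounds (0.99 ± 0.22, adjusted p = 0.0101). In all 3 the combined arrays lay above DMSO, which was a condition for choosing them, and the second replicate was much the higher. UQCRQ, ATP5E, NDUFA1, ATP5H and NDUFA7 rose by 0.90, 0.88, 0.88, 0.82 and 0.76 on the log2 scale.

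The second replicate with both compounds had the lowest 75th percentile of all arrays. Without it 7 subunit genes were raised and the median log2 change was 0.21, without the first replicate 46 were raised and the median was 0.68, and without either DMSO array 2 were raised. Within slide 1, which held the first replicate, the median was 0.22, and within slide 2, which held the second, it was 0.66. The size of the rise with both compounds thus differed by more than 1.5 times between its own replicates.

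By complex, the rise with both compounds passed the test in 9 of 39 genes of complex I, none of complex II, 4 of 7 of complex III, 11 of 15 of complex IV and 6 of 16 of complex V. The median log2 changes were 0.32, 0.02, 0.58, 0.76 and 0.46. UQCRFS1, lowered with luteolin, had levels of 4.91 and 5.13 with both compounds against 4.55 and 4.50 in DMSO (0.50 ± 0.15, adjusted p = 0.0322), but its change after quantile normalization was 0.11 (adjusted p = 0.57). ATP5O, which links the head of complex V to its stalk, had a change of 0.03 relative to the 75th percentile and was lowered after quantile normalization (-0.61, adjusted p = 0.018).

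**Figure D4:**
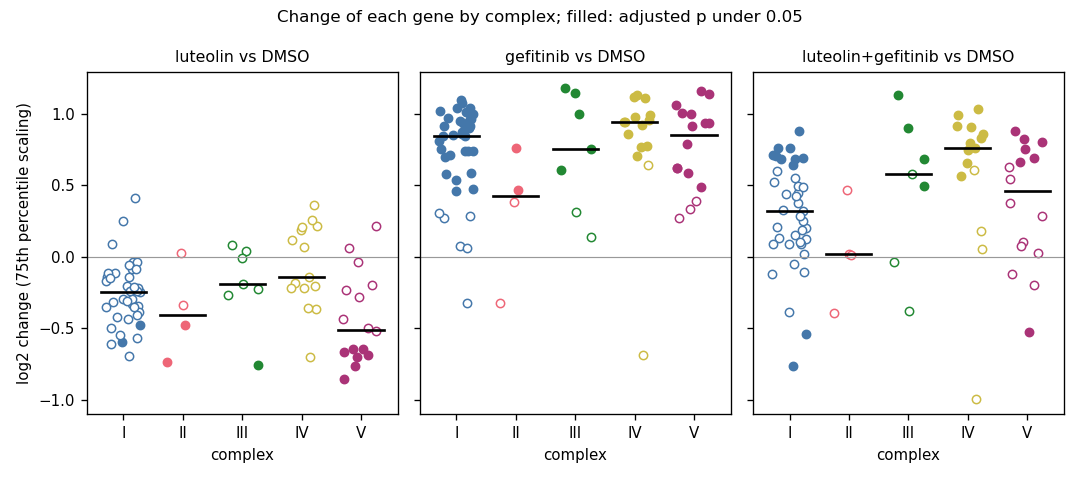
Log2 change against DMSO of the 81 subunit genes by complex, scaled to the 75th percentile, in 1 panel for each treatment. Filled points passed the test, open points did not, and bars are medians. Complex V has the lowest median with luteolin (-0.51), all 5 medians are above 0 with gefitinib, and complex II lies at 0.02 with both compounds.

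The treated groups were also compared with 0 h, which shares the drug arrays with the comparisons above. With luteolin 1 gene was raised and 9 lowered (16.4% and 14% of all genes), with a median log2 change of -0.11. With gefitinib 70 were raised and none lowered (32% and 22.3% of all genes), with a median of 0.98 that became 0.25 after quantile normalization and -0.03 without scaling. With both compounds 38 were raised and 2 lowered (24.2% and 16.4% of all genes), with a median of 0.53, or 0.12 after quantile normalization and -0.38 without scaling. Single arrays moved these counts. The 9 genes lowered with luteolin became 0 without the first 0 h array or the second luteolin array, 1 without the second 0 h array and 3 without the first luteolin array. The 38 genes raised with both compounds became 9 and 21 without the first or the second 0 h array and 23 without the second array with both compounds. Within slides, each with 1 array of each group, the medians were 0.09 for DMSO, -0.15 for luteolin and 0.78 for both compounds on slide 2, and 0.93 for gefitinib on slide 3.

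Comparing the compounds directly asked where the treated groups differed from each other. Luteolin against gefitinib had no gene higher and 71 lower (27.2% and 33.3% of all genes), with a median log2 difference of -0.99, or -0.31 with none higher and 33 lower after quantile normalization (29.5% and 27.5% of all genes). Both compounds against luteolin alone had 50 higher and none lower (23.4% and 18.3% of all genes), with a median of 0.65, or 0.26 with 20 higher and 1 lower after quantile normalization (18.7% and 21.6% of all genes), and -0.04 with none higher and 4 lower without scaling (3.8% and 31.9% of all genes). Both compounds against gefitinib alone had 1 higher and 25 lower (24.4% and 22.9% of all genes), with a median of -0.35, or -0.08 with 3 higher and 11 lower after quantile normalization (24.2% and 23.8% of all genes). Without scaling, luteolin against gefitinib had a median of -0.20 for the subunit genes with none higher and 8 lower, while the median of all genes was 0.64 (-0.15 relative to the 75th percentile) and 42% of all genes were higher and 5.29% lower. The 50 genes higher with both compounds than with luteolin became 19 and 15 without the first or the second luteolin array and 25 without the second array with both compounds. The 25 genes lower with both compounds than with gefitinib became 15 without the first gefitinib array or the first array with both compounds, and 53 without the second array with both. Within slide 1 the median was -1.09 for luteolin against gefitinib, 0.42 for both compounds against luteolin (0.89 on slide 2) and -0.63 for both compounds against gefitinib.

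Several subunits have tissue-specific forms, and most of these were dim. COX6A2, with the levels given above, was a bright exception, and what its probe reads was not tested. COX7B2, a testis form, was well above background on all 10 arrays at levels of -1.24 and -0.53 in DMSO, -1.64 and -1.53 with luteolin, -2.07 and -1.07 with gefitinib, and -2.44 and -1.31 with both compounds. COX6B2 lay between -4.74 and -3.46 over the 10 arrays. Relative to the 75th percentile, no comparison with DMSO passed the test for either gene, whereas without scaling COX7B2 fell by 1.73 with gefitinib (adjusted p = 0.00385) and by 1.94 with both compounds (adjusted p = 0.00342). Of the 34 genes with more than 1 probe, 32 had at least 2 probes that passed the filter. Their probes had opposite signs against DMSO in COX4I1 and UQCR with luteolin, in ATP5G3 and NDUFS4 with gefitinib, and in ATP5G3, COX5A, COX7B, NDUFA5, NDUFC2 and SDHD with both compounds. A dimmer NDUFS4 probe, well above background on 5 arrays, had a change of -1.28 with gefitinib (limma adjusted p = 0.00423), against 0.74 for the brightest. One of the dimmer NDUFV3 probes had a change of -1.12 with gefitinib (limma adjusted p = 0.00236), against -0.32 for the brightest.

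Other genes of energy metabolism were taken as lists for comparison. Their counts stand beside the shares of all genes raised and lowered against DMSO, which were 14.3% and 11.7% with luteolin, 33.1% and 22.1% with gefitinib and 25.1% and 16.2% with both compounds (after quantile normalization 13.8% and 13.3%, 23.4% and 24.3%, and 17.8% and 20.7%). Of 14 further subunit genes and electron carriers that the name rule does not reach, 3 were lowered and none raised with luteolin (median log2 change -0.28), namely DHODH (-1.35), which feeds electrons from pyrimidine synthesis to ubiquinone, the transhydrogenase NNT (-1.12) and CYCS (-0.96), cytochrome c itself. With gefitinib 11 were raised and 1, NNT (-1.62), was lowered (median 0.74), but after quantile normalization 2 were raised and 1 lowered (median 0.16). With both compounds 2 were raised and 1 lowered (median 0.24), or 1 and 3 after quantile normalization (median 0.02).

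Of 34 assembly factors, 7 were lowered and 1 raised with luteolin (median -0.33). SCO1, a copper chaperone of complex IV, fell by 1.21 and COX19, another factor of that complex, rose by 1.43. With gefitinib 12 of the 34 were raised and 8 lowered (median 0.17), shares near those of all genes, or 4 raised and 11 lowered after quantile normalization (median 0.03), the largest fall being that of COX10 (-2.80), which makes heme O for the heme A of complex IV, followed by SCO2 (-1.49), TMEM70 (-1.29) and SDHAF1 (-1.25). With both compounds 8 were raised and 2 lowered, or 8 and 7 after quantile normalization, and COX19 rose by 2.20 and LRPPRC, which stabilizes mitochondrial mRNAs, by 1.13.

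Of 18 regulators of mitochondrial biogenesis tested, 1 was raised and 12 were lowered with gefitinib, 10 of them at least 2-fold (median -1.05, or -1.12 after quantile normalization). They included the coactivators PPRC1 (-2.56) and PPARGC1B (-1.77), the transcription terminator MTERF1 (-2.19), the nuclear receptor PPARA (-1.996) and the helicase TWNK (-1.68). With luteolin PPARA rose by 2.55, NRF1 by 1.64 and ESRRG by 1.16, while TFAM, which packages and transcribes mitochondrial DNA, fell by 0.78. NRF1 had levels of -2.76 and -2.87 in DMSO, -1.36 and -0.99 with luteolin, -4.49 and -4.47 with gefitinib, and -3.80 and -4.21 with both compounds. It thus lay higher on the luteolin arrays, where 12 subunit genes were lowered, and lower on the gefitinib and combined arrays. A link between the level of NRF1 and the subunit genes was not tested. With both compounds 5 regulators were raised, with MTERF1 at 1.07, and 3 were lowered, namely TFB1M (-1.22), NRF1 (-1.19) and ESRRG (-0.82).

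In the pathways that feed the chain, 7 of 18 citric acid cycle enzymes were lowered and none raised with luteolin (median -0.34), with FH, fumarase, at -1.29. Of 17 glycolysis enzymes, 8 were lowered and none raised (median -0.57), with PGAM1 at -1.13 and ENO1 at -1.05. Among 8 pyruvate dehydrogenase kinases and linked genes, PDK4 rose by 2.45 and VEGFA by 1.03, while PDK3 fell by 1.94 and PDK1 by 1.29. With gefitinib 8 citric acid cycle enzymes were raised and 3 lowered, with OGDH at 1.74 and DLAT at -1.60, and 15 of 17 glycolysis enzymes were raised (median 0.85). After quantile normalization the counts were 5 raised and 4 lowered for the cycle and 4 raised and 2 lowered for glycolysis (median 0.14). With both compounds 4 citric acid cycle enzymes were raised and 3 lowered and 11 glycolysis enzymes were raised, or 3 and 4 and 5 after quantile normalization, and PDK4 rose by 1.77.

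The 76 mitochondrial ribosomal protein genes had 19 lowered and 1 raised with luteolin (median -0.33), 29 raised and 8 lowered with gefitinib (median 0.12) and 7 raised and 12 lowered with both compounds (median -0.13). After quantile normalization the balance with gefitinib turned to 9 raised and 22 lowered (median -0.28), and with both compounds 4 were raised and 25 lowered (median -0.34). Of 76 cytosolic ribosomal protein genes, none passed the test with luteolin (median 0.14), whereas 75 were raised with gefitinib and 65 with both compounds (medians 0.98 and 0.80). After quantile normalization 4 were raised and 1 lowered with gefitinib and 5 were raised and none lowered with both compounds (median 0.08 in both). Cytosolic ribosomal protein genes are bright on these arrays like the subunit genes, and on the gefitinib arrays both groups shifted alike relative to the 75th percentile. Of 5 genes named for mitochondrially encoded subunits, 1 was lowered with luteolin, 1 was raised and 1 lowered with gefitinib (1 and 3 after quantile normalization), and 3 were raised and 1 lowered with both compounds (2 and 1 after quantile normalization). ND6 was lowered in all 3 comparisons (-1.22, -1.35 and -1.16), ND1 was raised with gefitinib (1.39) and with both compounds (1.25), and ND2 (0.92) and ND3 (0.90) were raised with both compounds. The median of the 5 was 0.03 with luteolin, -0.15 with gefitinib (-1.003 after quantile normalization) and 0.90 with both compounds (0.21 after quantile normalization). The methods give oligo-dT primers for the labelling, and how fully these reach mitochondrially encoded transcripts was not tested.

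**Figure D5:**
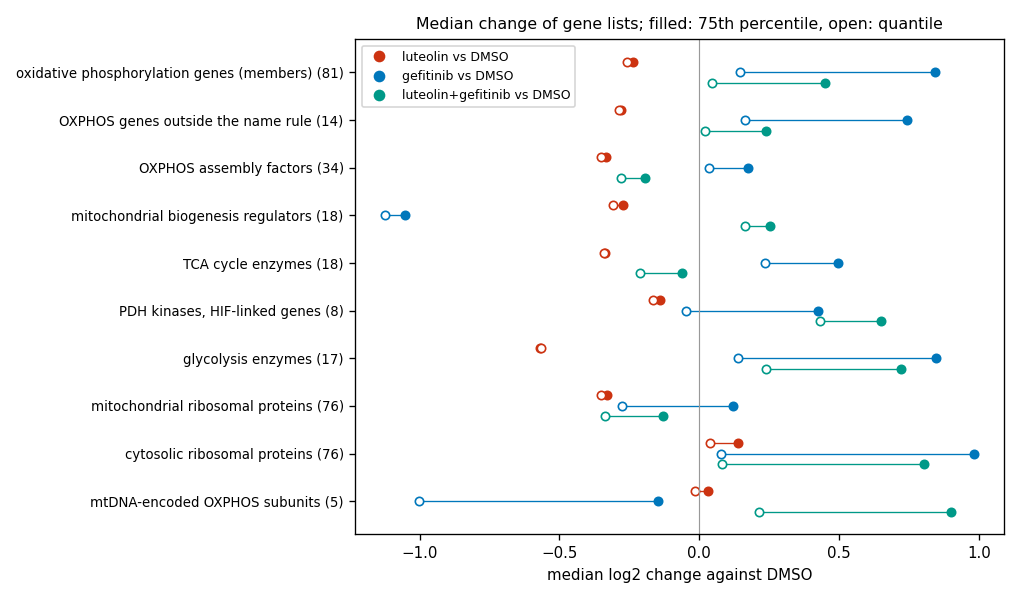
Median log2 change against DMSO of the subunit genes and of lists of related genes, for the luteolin, gefitinib and combined arrays, scaled to the 75th percentile or quantile normalized. With luteolin the subunit genes (-0.24), citric acid cycle enzymes (-0.34) and glycolysis enzymes (-0.57) lie below 0 and cytosolic ribosomal proteins at 0.14. With gefitinib the biogenesis regulators lie at -1.05.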

How the data were processed

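Messenger RNA levels were measured on 10 one-color Agilent human genome arrays of PC-3 cells. Per the file headers, the deposited scanner files hold intensities from Feature Extraction 10.7.3.1, background-subtracted and detrended within each array by the authors, with no normalization between arrays; the deposited value table held the same intensities (largest relative difference 0). Control spots and outlier spots were left out, spots of a probe were averaged, each signal was divided by the 75th percentile of its array, and log2 was taken. Probes were kept when at least 1 group had both of its arrays well above background (28776 of 41000). Of all probes, 38275 had a gene name, 23958 of them through RefSeq accessions. limma 3.58.1 in R 4.3.3 was fitted to all 5 groups, and p-values were adjusted by Benjamini-Hochberg over the kept probes. A gene, read from its brightest probe, was called at an adjusted p under 0.05, and 19475 genes were tested. With 2 arrays per group the number of arrays limits the precision. The replicates are labelled biological, and p-values measure the spread between these arrays only. That spread was pooled over the 5 groups, although the typical SD of a subunit gene was 0.06 in DMSO and 0.33 with both compounds.

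Members and lists were chosen with earlier results of these data known. Within each comparison with DMSO, the genes described individually were the called members of each complex with the largest changes. They also had to be well above background and to have treated arrays that did not overlap the DMSO arrays. A lack of overlap in these genes is therefore no separate result. The remaining members were added after their values were seen. A few genes are not reported here by name. The alternatives were quantile normalization, normexp (offset 50), the filter, probe choice, slide or replicate number as a block, leaving out arrays, the treatments of the file names and, added after seeing the data, no scaling and scaling on the members. On simulated data for luteolin against DMSO over 28776 probes, of which 7194 changed, 19.3% of changes of 0.5 on the log2 scale, 81.2% of 1 and 98.3% of 2 were recovered, and with 200 changed 0%, 20.9% and 92.4%.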

Additional observations from a re-analysis of the deposited data

How the results depend on the processing

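Numbers are subunit genes raised and lowered, of 81. For luteolin, gefitinib and both compounds against 0 h, quantile normalization gave 3 and 15, 17 and 3, and 14 and 5; against DMSO it gave 1 and 20, 4 and 5, and 4 and 8; luteolin against gefitinib gave 33 lowered, both against luteolin 20 and 1, and both against gefitinib 3 and 11. Without scaling, in the same order, counts were 0 raised with luteolin, 0 and 4, and 0 and 24 against 0 h, 0 and 12 with gefitinib and 0 and 30 with both against DMSO, 8 lowered for luteolin against gefitinib, and 0 and 4 and 0 and 7 for both against luteolin and gefitinib. Scaling on the members gave 4 and 5, 1 and 10, and 2 and 21 against 0 h, 7 and 0, 1 and 5, and 4 and 11 against DMSO, and 10 and 4, 3 and 14, and 3 and 9 between compounds. The treatments of the file names gave 38 and 2, 1 and 9, and 70 and 0 against 0 h, 30 and 3, 0 and 12, and 65 and 0 against DMSO, and 50 and 0, 25 and 1, and 71 and 0 between compounds. They also turned the sign for luteolin against DMSO in SDHD (0.014), UQCRFS1 (0.50), ATP5G1 (0.55) and ATP5F1 (0.072), for gefitinib in NDUFA12L (-0.44), NDUFA3 (-0.14), SDHB (-0.34), SDHD (-0.48), UQCRQ (-0.0088) and ATP5D (-0.50), and for both compounds in NDUFS3 (0.47) and ATP5S (0.39).

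With only the compared groups in the fit, luteolin gave 2 raised against 0 h and 1 and 19 against DMSO, both compounds gave 16 and 0 against 0 h, 5 and 1 against DMSO, 14 raised against luteolin and 0 and 8 against gefitinib. Without the dim filter, luteolin gave 2 and 3 against 0 h and 1 and 4 against DMSO, and both gave 1 lowered against 0 h and 19 raised against DMSO. The slide as a block gave 0 and 3 for luteolin and 0 lowered for both against 0 h. At least 2-fold, counts were 0 and 0, 37 raised, and 11 and 0 against 0 h, 0 lowered, 16 raised, and 2 and 0 against DMSO, and 40 lowered, 12 raised, and 0 and 2 between compounds. The median over probes gave 1 raised for luteolin and 2 for both against gefitinib. The methods' t-test, unadjusted, gave 10 and 1 for DMSO, 7 raised for luteolin, 38 for gefitinib and 1 for both against 0 h, and 0 in all comparisons after Benjamini-Hochberg. The share of all genes called by that t-test was not computed. Leaving out 1 array moved the raised counts over 0 to 1, 54 to 61, and 9 to 52 against 0 h, 38 to 56 for gefitinib and 2 to 46 for both against DMSO, and 15 to 61 and 0 to 3 for both against luteolin and gefitinib. The lowered counts ranged over 0 to 3 for luteolin and 0 to 1 for both against 0 h, 0 to 4 and 0 to 2 against DMSO, and 65 to 70, 0 to 1 and 15 to 53 between compounds. The causes were not tested. With the replicate number as a block, counts against DMSO were 12 lowered with luteolin, 66 raised with gefitinib and 30 raised and 4 lowered with both; same-numbered arrays correlated between -0.09 and 0.29, with 6 of 10 pairs of groups over 0.1, and as the labels name no shared day or culture the numbers were not taken to pair the arrays; no count moved by over 1.5 times. Normexp, the value table, a filter requiring all 10 arrays above background and leaving out non-structural members moved none by over 1.5 times.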
